A study of Rattus norvegicus with 9 samples.

Results

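Satellite glia are the flat cells that wrap each sensory neuron body in a dorsal root ganglion (DRG), the cluster of sensory neurons and support cells beside the spinal cord. The 7 genes described here are a named list of satellite glia genes (Gfap, Ptgds, Fabp7, Glul, Apoe, Slc1a3 and Sparcl1), found by symbol in the deposited count table. All 7 of 7 were among its 30446 genes, each under 1 identifier, and all 7 passed the low-count filter that left 16627 genes for testing. The list was drawn up with earlier results of these data known.

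The samples are DRG of male Sprague-Dawley rats, taken from both sides at spinal levels T12 to L6 and labelled day 30 in every group. The 9 libraries form 3 groups of 3, labelled naive, sham and SCI (spinal cord injury). The labels name no drug, transgene or batch, and do not give the age of the rats, the kind of injury or whether a library holds 1 animal or a pool. The series text calls the libraries biological replicates, and p-values here measure the spread between these libraries.

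Satellite glia take up glutamate and potassium around the neuron body, turn glutamate into glutamine, and handle lipids that neurons and glia share. After damage to a peripheral nerve they are known to become reactive, which includes more of the intermediate filament protein GFAP. None of the 7 genes is made by satellite glia alone: Schwann cells, macrophages, meningeal cells or blood vessels are also known to express several of them. In RNA from whole ganglia, fewer cells of a type and less RNA per cell cannot be told apart.

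Library totals ran from 16724878 to 32060538 counts. The lowest count of any of the 7 genes in any library was 389 (Slc1a3 in sham 2), for which counting error alone is 5.07% of the value. Levels are given in CPM, the read count scaled to a fixed library total. The naive libraries lay apart from the other 6 on the leading principal component, which held 59.3% of the variance in log2 CPM. Sham and naive differed in 50.6% of tested genes and SCI and naive in 48.5% (edgeR quasi-likelihood test, adjusted p under 0.05), while 0 genes, or 0%, were called between SCI and sham. Of 19 other settings 16 also gave 0 calls there. The remaining settings gave 9 calls with DESeq2, 11 without a low-count filter and 22 without sham 3. The labels give no batch, so that an effect of surgery or injury and a difference of the naive libraries in handling cannot be told apart. Sham 1 and sham 3 stood at opposite ends of the second component (-25.9 and 26.2). Markers of neurons, the cells that define the tissue, were present, with the 11 listed genes summing to 30137 to 44465 CPM over all libraries.

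The stretch upstream of each gene is shown for the 4 genes called in at least 1 comparison that have a single start listed by RefSeq: Ptgds and Fabp7, called higher in sham and SCI than in naive ganglia, Sparcl1, called lower in both, and Gfap, called lower in sham alone. Each line gives 250 bases before the gene's start in rat build GRCr8, read 5′ to 3′ along the gene. Capitals mark ATAAA, a short A/T-rich run that resembles the core of a TATA box.

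Gfap (chr10:88361662-88361911, minus strand): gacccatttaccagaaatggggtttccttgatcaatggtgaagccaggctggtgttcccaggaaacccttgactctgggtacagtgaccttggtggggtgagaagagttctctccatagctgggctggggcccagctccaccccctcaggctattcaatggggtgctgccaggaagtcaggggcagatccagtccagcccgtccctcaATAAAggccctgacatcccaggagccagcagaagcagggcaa
Sparcl1 (chr14:5937234-5937483, plus strand): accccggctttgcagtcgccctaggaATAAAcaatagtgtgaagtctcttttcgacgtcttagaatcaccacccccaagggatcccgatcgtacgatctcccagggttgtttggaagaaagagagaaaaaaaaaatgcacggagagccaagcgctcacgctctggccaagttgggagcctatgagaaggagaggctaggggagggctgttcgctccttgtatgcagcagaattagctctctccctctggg
Ptgds (chr3:28682979-28683228, minus strand): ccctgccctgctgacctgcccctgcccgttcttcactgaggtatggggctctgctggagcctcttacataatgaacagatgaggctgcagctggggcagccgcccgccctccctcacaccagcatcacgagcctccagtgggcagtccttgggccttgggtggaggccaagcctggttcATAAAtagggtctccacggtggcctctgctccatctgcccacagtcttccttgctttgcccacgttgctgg
Fabp7 (chr20:37669356-37669605, plus strand): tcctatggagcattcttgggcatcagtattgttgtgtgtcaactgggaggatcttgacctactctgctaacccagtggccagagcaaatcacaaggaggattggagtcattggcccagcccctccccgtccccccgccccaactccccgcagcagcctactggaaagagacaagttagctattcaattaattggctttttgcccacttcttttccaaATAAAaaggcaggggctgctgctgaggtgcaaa

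All 7 genes had such a window, 12 in all, because Apoe and Slc1a3 have 3 starts each and Glul has 2. Both strands of the 12 windows were searched for TTCNNNGAA (the STAT motif), ACAAAG (SOX), TATAAA, and the longer NFI and liver X receptor motifs. Among these, ACAAAG in the 3 overlapping Slc1a3 windows was the one match. Over all 33469 windows of the same length in the table, TTCNNNGAA occurred in 7.67%, ACAAAG in 16.3%, TATAAA in 12.9%, and the NFI and liver X receptor motifs in 0.036% and 0.0030%. The motif ATAAA, which lies inside TATAAA, was added after the windows had been read and occurred in 39.3%. It starts 33 bases before the start of Fabp7, 42 before that of Gfap, 71 before that of Ptgds and 224 before that of Sparcl1. It also occurs in 1 of the 2 Glul windows, 29 bases before the start, and in all 3 Slc1a3 windows, for which no change was called, and in none of the 3 Apoe windows. A match is a run of letters and not a measured site.

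The 7 genes fell into 3 patterns. Fabp7, Apoe and Ptgds stood higher in sham and SCI than in naive ganglia, Gfap and Sparcl1 were lower in sham than in naive, and no change was called for Glul and Slc1a3. Between SCI and sham none of the 7 was called, and Gfap and Ptgds had the largest differences, both upward. The plot of CPM by library shows each value.

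**Figure D1:**
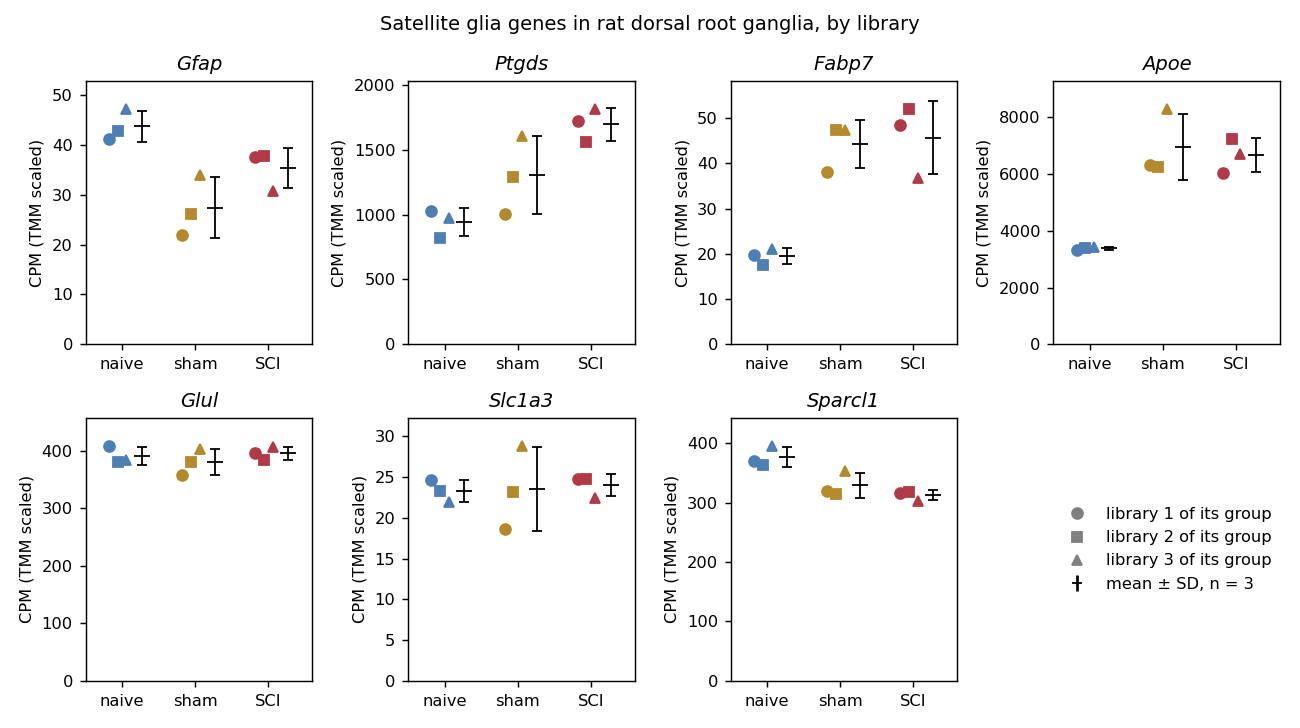
CPM (vertical axis, linear and from 0) of each satellite glia gene in the 9 libraries of naive, sham and SCI ganglia, with marker shapes for libraries 1 to 3 and black bars for the mean ± SD of 3 libraries. Fabp7 and Apoe lie near 19.4 and 3390 CPM in naive ganglia and at 44.3 and 6946 in sham and 45.7 and 6667 in SCI, whereas the groups overlap for Glul and Slc1a3.

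Gfap encodes the glial fibrillary acidic protein, the intermediate filament used as a marker of reactive glia. It stood at 41.2, 42.8 and 47.2 CPM in naive libraries 1 to 3, at 22.0, 26.2 and 34.1 in sham 1 to 3, and at 37.7, 37.8 and 30.8 in SCI 1 to 3. All naive libraries thus lay above every sham and SCI library, and the sham and SCI ranges overlapped. Gfap fell in sham relative to naive, by 0.68 on the log2 scale (SE 0.13, edgeR adjusted p = 0.000813), which is 1.60-fold lower. In SCI it lay lower than in naive by a log2 change of -0.30 (SE 0.13) and was not called, with an edgeR adjusted p of 0.0658. It was called under other settings: the adjusted p was 0.0239 without a low-count filter, 0.00337 with SCI and naive alone in the fit, 0.0142 without sham 1 and 0.00870 without sham 3.

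Between SCI and sham, Gfap had a log2 change of 0.38 (SE 0.13, 95% interval 0.088 to 0.66), with an unadjusted p of 0.0145 and an edgeR adjusted p of 0.9999. An unadjusted p under 0.05 was met by 2 of the 7 genes, Gfap and Ptgds, and by 526 tested genes, 3.16% of all. Both SCI 1 and SCI 2 lay above all sham libraries, and SCI 3 lay below sham 3. Without sham 3, the change was 0.56 with an edgeR adjusted p of 0.0530, and without sham 1 it was 0.23 with an adjusted p of 0.779. The size of the difference thus rests on which sham library is counted.

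Of 19 other filament and glial reactivity genes tested, 4 were called higher and 6 lower between sham and naive, and 5 higher and 6 lower between SCI and naive. These shares are near the 50.6% and 48.5% called over all tested genes. Their median log2 changes were -0.08 and -0.05, and over all tested genes the medians were 0.00 and 0.01. Cntf, ciliary neurotrophic factor, fell from 156 ± 4.69 CPM (SD, n = 3) in naive to 89.2 ± 15.1 in sham and 91.7 ± 2.01 in SCI. Lifr, a subunit of the receptor through which Cntf signals, fell from 162 ± 11.1 to 81.7 ± 17.2 and 85.7 ± 10.4. Hes5, a Notch target that holds glial precursors undifferentiated, stood at 4.20 ± 0.632 CPM in naive and at 9.54 ± 1.83 and 11.1 ± 2.80 in sham and SCI (log2 change SCI against naive 1.40, SE 0.19, edgeR adjusted p = 6.38e-05). S100a10, an annexin partner, rose between naive and sham (log2 change 0.71, SE 0.09, edgeR adjusted p = 3.24e-05). It also rose in SCI against naive (log2 change 0.57, SE 0.09, edgeR adjusted p = 0.000197). Vim, the filament protein vimentin, had log2 changes of 0.04 in sham and 0.08 in SCI against naive and was not called (chosen after its values were seen, as Gfap's usual filament partner).

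Central nervous system glia also make Gfap. Of 8 listed central glia markers 5 were tested. Between sham and naive 1 was called higher and 2 lower, and between SCI and naive 2 higher and 1 lower. The shares called over all tested genes were 50.6% and 48.5%. Their summed level was 63.0 to 70.8 CPM in naive, 59.0 to 79.9 in sham and 74.4 to 87.1 in SCI. The highest count in any library was 1 for Olig2, 8 for Opalin, 11 for Olig1, 41 for Mobp, 176 for Mog, 291 for Agt, 422 for Hapln2 and 1935 for Cldn11. Cldn11, a tight junction protein of myelin, stood at 41.8 ± 5.66, 45.1 ± 8.68 and 57.8 ± 7.14 CPM in naive, sham and SCI, and Agt, angiotensinogen, at 6.38 ± 0.302, 9.36 ± 1.25 and 8.65 ± 0.304. Both were called higher in SCI than in naive, and were singled out with their values known. Cldn11 made up most of the summed level. The other tested markers, Mog, Mobp and Hapln2, had negative log2 changes in SCI against naive, down to -1.35. In sham against naive 3 of the 5 were negative, down to -1.13. Whether such cells had a part in the Gfap values was not tested.

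Ptgds encodes the lipocalin-type prostaglandin D synthase, which makes prostaglandin D2 and carries lipophilic molecules outside cells. It stood at 1026, 819 and 976 CPM in naive libraries 1 to 3, at 1006, 1294 and 1608 in sham 1 to 3, and at 1720, 1561 and 1814 in SCI 1 to 3. Every SCI library lay above every naive library, and the sham libraries ran from the naive level to the SCI level. Ptgds rose in SCI relative to naive by a log2 change of 0.85 (SE 0.14, edgeR adjusted p = 0.000306), or 1.81-fold. In sham it rose by 0.47 (SE 0.14, edgeR adjusted p = 0.0137), a call that was lost without naive 2 (log2 change 0.38, adjusted p = 0.0647).

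Between SCI and sham, Ptgds had a log2 change of 0.38 (SE 0.14, 95% interval 0.077 to 0.69), with an unadjusted p of 0.0179 and an edgeR adjusted p of 0.9999. Sham 3 lay above SCI 2, so that the groups overlapped. The change was 0.56 without sham 3 (edgeR adjusted p = 0.0629) and 0.22 without sham 1 (adjusted p = 0.778). For both Gfap and Ptgds, sham 1 was the lowest and sham 3 the highest sham library.

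Most other prostaglandin genes were not called. Of 17 tested, 2 were called higher and 2 lower between SCI and naive (48.5% of all tested genes were called), and 2 higher and 1 lower between sham and naive (50.6%), with median log2 changes of -0.02 and 0.10. Ptgs2, the inducible form of the cyclooxygenases that supply the substrate, stood at 1.78 ± 0.463, 1.28 ± 0.317 and 0.808 ± 0.0894 CPM in naive, sham and SCI. Its log2 change was -1.13 in SCI against naive (SE 0.26, edgeR adjusted p = 0.00305). In sham against naive it was -0.49 (SE 0.25, edgeR adjusted p = 0.118) and not called. Counts of Ptgs2 never exceeded 67 in a library. Ptgs1, the other cyclooxygenase, stood higher, at 9.02 ± 0.801, 8.58 ± 0.451 and 8.51 ± 0.569 CPM in naive, sham and SCI. It was not called in any comparison (named after its values were seen). Ptgfr, the receptor for prostaglandin F2 alpha, fell from 24.3 ± 2.21 CPM in naive to 14.3 ± 2.79 in sham and 14.6 ± 0.847 in SCI. Ptges2 and Ptges, synthases of prostaglandin E2, rose in sham by 0.35 (SE 0.07) and 0.63 (SE 0.17) on the log2 scale (edgeR adjusted p = 0.000620 and 0.00620). In SCI against naive they rose by 0.23 (SE 0.06) and 0.44 (SE 0.16), with edgeR adjusted p = 0.00961 and 0.0397. Ptgdr2, a receptor for prostaglandin D2, never exceeded 7 counts in a library. The called number in this list moved between 2 and 8 over the alternatives for SCI against naive.

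Likeness was ranked among tested genes with a symbol of their own, and identifiers without one were passed over. The 5 whose log2 CPM followed Ptgds most closely over the 9 libraries were Slc22a6 (Pearson r = 0.98), Tnnt2 (0.98), Slc13a4 (0.98), Cd33 (0.97) and Snai1 (0.96). These are descriptions over 9 libraries that share the group differences. Slc22a6, an organic anion transporter, is on the list of meningeal and fibroblast markers, and stood at 5.36, 3.34 and 4.53 CPM in naive 1 to 3, at 4.56, 5.71 and 8.04 in sham 1 to 3, and at 9.15, 7.76 and 8.91 in SCI 1 to 3. Its order of libraries within sham is that of Ptgds, as the plot of Ptgds against Slc22a6 shows. Slc22a6 was picked for its likeness to Ptgds in these libraries, so that this order is no separate result. Gfap, Fabp7, Glul and Slc1a3 had the same order within sham. It rose in SCI relative to naive (log2 change 0.98, SE 0.20, edgeR adjusted p = 0.00124) and was not called in the other comparisons. Slc13a4, a sulfate transporter, stood at 25.7 ± 2.98, 36.0 ± 5.58 and 41.9 ± 4.35 CPM in naive, sham and SCI.

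Meningeal cells are a known source of Ptgds. Of 13 listed meningeal and fibroblast markers 11 were tested. Between SCI and naive 3 were called higher and 3 lower (48.5% of all tested genes were called). Between sham and naive 1 was called higher and 4 lower (50.6%). Their summed level was 2817 to 3250 CPM in naive, 1708 to 2885 in sham and 1941 to 2415 in SCI, and none was at 0. Col1a1, Dcn and Lum, collagen and matrix genes of fibroblasts, made up most of this sum, at 1319, 1114 and 278 CPM on average in naive and 668, 823 and 210 in SCI. The markers called higher in SCI than in naive, as Ptgds was, were Slc22a6 (4.41 to 8.61 CPM), Slc6a13 (21.9 to 29.3) and Mgp (211 to 351). Those called lower were Col1a1, Pdgfra (72.4 to 42.8 CPM) and Ranbp3l (12.6 to 7.08). Dcn and Lum were not called (edgeR adjusted p = 0.0508 and 0.0637). Apart from Slc22a6, these markers were singled out with their values known. The part of such cells in the Ptgds values was not tested.

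**Figure D2:**
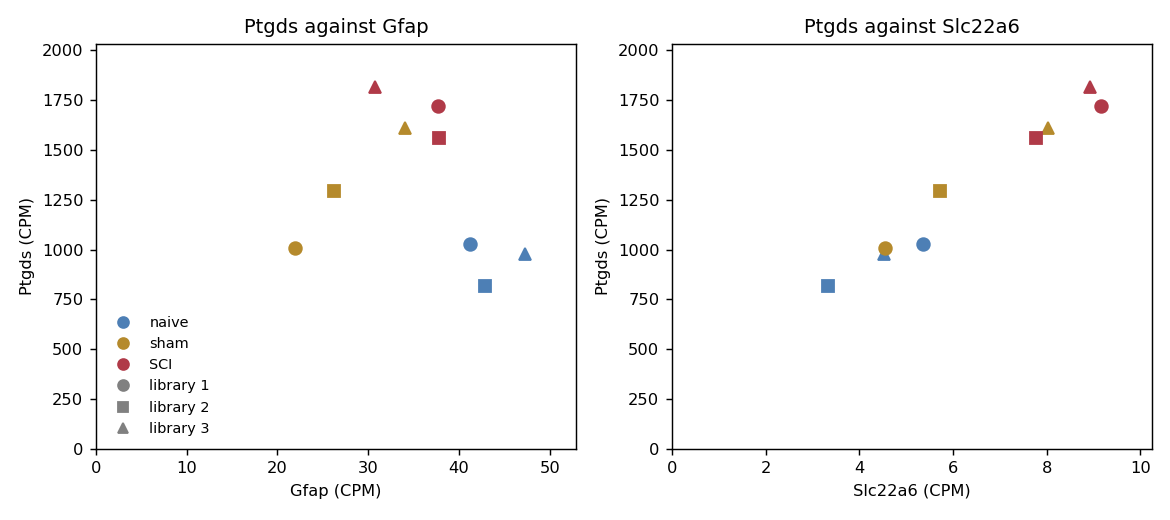
Ptgds in CPM (vertical axes) against Gfap and against Slc22a6 in CPM (horizontal axes), 1 point per library, coloured by group and shaped by library number. Ptgds and Gfap rise together across sham libraries from 1006 and 22.0 CPM in sham 1 to 1608 and 34.1 in sham 3. The naive libraries lie apart at high Gfap and low Ptgds. Ptgds followed Slc22a6 over all 9 libraries (Pearson r = 0.98), a gene picked for its high correlation with Ptgds.

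Among tested genes with a symbol of their own, those most like Gfap over the 9 libraries were Bmi1 (Pearson r = 0.97), Cc2d2a (0.97), Ermard (0.97), Erbb3 (0.96) and Arhgef26 (0.96). Erbb3, the neuregulin receptor of Schwann cells and satellite glia, stood at 216 ± 4.89 CPM in naive, 166 ± 27.3 in sham and 180 ± 8.24 in SCI. Like Gfap, it had its lowest mean in sham. Erbb3 was picked for its likeness to Gfap in these libraries, so that this order is no separate result.

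Fabp7, the brain fatty acid binding protein, carries long-chain fatty acids inside immature and satellite glia. It stood at 19.7, 17.6 and 21.1 CPM in naive libraries 1 to 3, at 38.1, 47.4 and 47.4 in sham 1 to 3, and at 48.4, 52.0 and 36.7 in SCI 1 to 3. The highest naive library lay far below the lowest library of either other group. Fabp7 rose 2.27-fold in sham (log2 change 1.18, SE 0.13, edgeR adjusted p = 8.24e-06) and 2.35-fold in SCI (1.23, SE 0.13, edgeR adjusted p = 7.24e-06). Of all tested genes, 99.4% and 99.5% had a log2 change no higher than that of Fabp7 in these comparisons. Between SCI and sham its log2 change was 0.05 (95% interval -0.21 to 0.31), and it turned to -0.05 without sham 1 or without SCI 2.

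Of 6 other members of the fatty acid binding family tested, 3 were called higher and 1 lower in sham and likewise in SCI, each against naive, where 50.6% and 48.5% of all tested genes were called. Fabp5, the epidermal form, stood at 223 ± 6.57 CPM in naive, 444 ± 35.0 in sham and 434 ± 22.6 in SCI. Fabp3, the heart form, stood at 27.4 ± 1.02, 40.4 ± 0.739 and 36.0 ± 1.81 CPM. Crabp1, a retinoic acid binding protein of the same family, rose by 0.58 in sham and 0.50 in SCI on the log2 scale. The gene that fell was Pmp2 (named after its values were seen), the form in Schwann cell myelin, from 702 ± 27.6 CPM in naive to 349 ± 79.7 in sham and 376 ± 135 in SCI. Fabp1, Fabp2, Fabp6, Fabp9 and Fabp12 never exceeded 4 counts in a library.

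Apoe encodes apolipoprotein E, the protein with which glia and macrophages export cholesterol and other lipids. It stood at 3333, 3407 and 3430 CPM in naive libraries 1 to 3, at 6312, 6238 and 8288 in sham 1 to 3, and at 6040, 7239 and 6723 in SCI 1 to 3. The naive libraries were close together and all 6 sham and SCI libraries lay above them. Apoe rose 2.05-fold in sham (log2 change 1.03, SE 0.12, edgeR adjusted p = 1.24e-05) and 1.97-fold in SCI (0.98, SE 0.12, edgeR adjusted p = 2.48e-05). Between SCI and sham the log2 change was -0.06 (95% interval -0.31 to 0.19). Its sign turned under 2 of 19 alternatives, both with a library left out, and the value was 0.084 without sham 3.

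Of 16 tested genes of the lipoprotein list around Apoe, 2 were called higher and 8 lower between SCI and naive, and again 2 and 8 between sham and naive. Over all tested genes 23.9% were called higher and 24.6% lower in the former comparison, and 24.7% and 25.9% in the latter. Lpl, lipoprotein lipase, fell from 30.4 ± 2.72 CPM in naive to 9.66 ± 1.33 in sham and 9.64 ± 1.98 in SCI. Abca1, the transporter that loads lipid onto apolipoprotein E, fell from 129 ± 10.8 to 58.1 ± 9.61 and 64.0 ± 4.92. Lrp1, a large receptor that takes up lipoproteins carrying it, fell from 289 ± 17.3 to 135 ± 24.7 and 144 ± 10.3. The genes called higher were Apoc1, the small apolipoprotein encoded next to Apoe, at 1.01 ± 0.0762, 2.21 ± 0.124 and 2.16 ± 0.0269 CPM, and Nr1h2, a liver X receptor (both named after their values were seen).

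Macrophages also express Apoe. Of 11 macrophage markers 7 were called higher and 2 lower in both sham and SCI against naive, and 0 between SCI and sham. Among all tested genes 24.7% were called higher and 25.9% lower in sham, and 23.9% and 24.6% in SCI. Their summed level was 340 to 424 CPM in naive, 473 to 677 in sham and 566 to 603 in SCI, and none was at 0. The part of macrophages in the Apoe values was not tested.

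Glul and Slc1a3 form the glutamate route of satellite glia: Slc1a3 encodes the transporter GLAST, which takes up glutamate, and Glul encodes glutamine synthetase, which converts it. Glul stood at 408, 380.0 and 383 CPM in naive libraries 1 to 3, at 358, 379.5 and 403 in sham 1 to 3, and at 396, 383 and 407 in SCI 1 to 3. All groups overlapped, and the 95% intervals of the log2 change were -0.091 to 0.20 for SCI against sham, -0.13 to 0.16 for SCI against naive and -0.19 to 0.11 for sham against naive.

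Slc1a3 stood at 24.7, 23.3 and 22.0 CPM in naive libraries 1 to 3, at 18.6, 23.1 and 28.8 in sham 1 to 3, and at 24.7, 24.8 and 22.4 in SCI 1 to 3. The sham libraries enclosed all others. Its log2 changes were 0.04, 0.04 and 0.01 for SCI against sham, SCI against naive and sham against naive, with 95% intervals of -0.23 to 0.31, -0.22 to 0.31 and -0.26 to 0.28. Changes within these bounds are not excluded by these values.

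Of 14 tested genes of glutamate and glutamine handling, 2 were called higher and 7 lower between sham and naive (24.7% and 25.9% of all tested genes), and 2 and 6 between SCI and naive (23.9% and 24.6%). Slc17a7, the vesicular glutamate transporter VGLUT1, was among those called higher, at 268 ± 20.4, 369 ± 65.8 and 344 ± 4.97 CPM in naive, sham and SCI (named after its values were seen). Slc38a2, a glutamine importer, fell from 407 ± 17.3 CPM in naive to 236 ± 9.38 in sham and 248 ± 13.0 in SCI. Slc17a6, the vesicular glutamate transporter VGLUT2, fell from 178 ± 4.44 CPM to 109 ± 24.1 and 112 ± 1.23. Slc38a1, another glutamine importer, fell from 28.8 ± 1.25 to 18.8 ± 2.80 and 18.5 ± 2.07.

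Sparcl1, known as hevin, is a secreted matrix protein that astrocytes use to promote synapses and that vessel walls also make. It stood at 370.2, 363 and 395 CPM in naive libraries 1 to 3, at 319, 314 and 353 in sham 1 to 3, and at 316, 318 and 303 in SCI 1 to 3. Every naive library lay above every sham and SCI library. Sparcl1 fell by 0.27 in SCI (SE 0.07, edgeR adjusted p = 0.00619) and by 0.19 in sham (SE 0.07, edgeR adjusted p = 0.0324) on the log2 scale. The sham call was lost under 8 of 19 alternatives: the replicate number as a block (adjusted p = 0.0510), no low-count filter (0.0501), sham and naive alone in the fit (0.0764), and without naive 1 (0.0681), naive 2 (0.0533), naive 3 (0.122), sham 2 (0.108) or SCI 2 (0.0591).

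Of the 7 other genes of the SPARC family 1 was called higher and 1 lower in both sham and SCI against naive. Over all tested genes 50.6% and 48.5% were called in these comparisons. Spock3, a proteoglycan, fell from 64.5 ± 1.25 CPM in naive to 40.5 ± 8.57 in sham and 37.1 ± 2.16 in SCI, and Smoc1, a matrix protein, rose from 5.88 ± 0.164 to 7.69 ± 0.621 and 7.73 ± 0.111. Smoc2 was not called, with log2 changes of -0.32 (SE 0.18) and -0.43 (SE 0.18). Endothelial markers were called 1 higher and 2 lower of 5 in both sham and SCI against naive, with sums of 193 to 207 CPM in naive, 151 to 200 in sham and 166 to 188 in SCI. Cldn5, on that list, was at 0 in all libraries. Mural cell markers were called 5 higher and 1 lower of 7 in sham and 3 higher and 1 lower in SCI. Their sums were 261 to 276, 269 to 377 and 293 to 312 CPM, with none at 0. For the endothelial and mural lists alike, the shares of all tested genes were 24.7% higher and 25.9% lower in sham. In SCI they were 23.9% and 24.6%. The part of vessel cells in the Sparcl1 values was not tested.

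**Figure D3:**
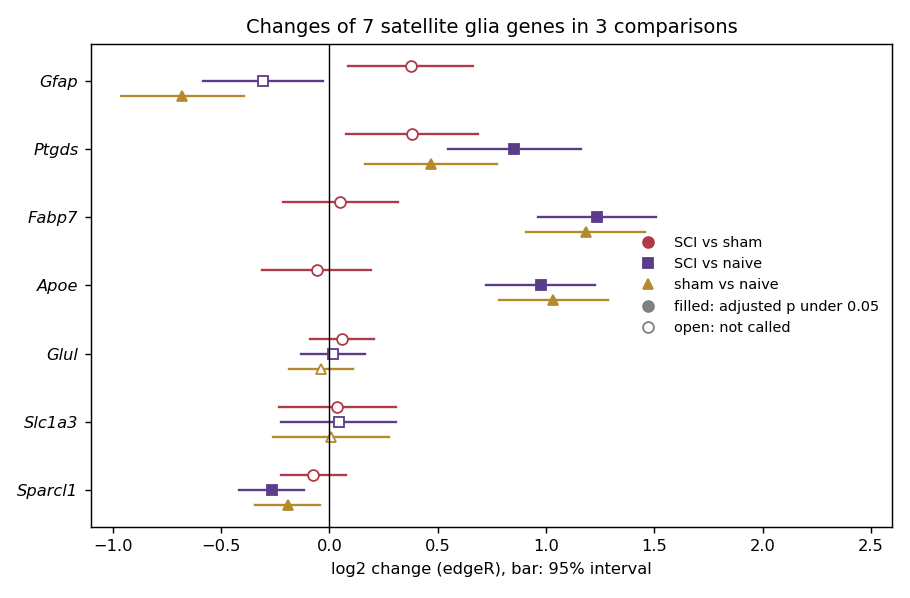
Log2 change (horizontal axis) of each satellite glia gene for SCI against sham, SCI against naive and sham against naive, with the 95% interval from edgeR as a bar, filled symbols for an adjusted p under 0.05 and open symbols for changes not called. All 7 symbols of SCI against sham are open, and Fabp7, Apoe and Ptgds have filled symbols to the right of 0 in both comparisons with naive.

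Counted together, 5 of the 7 genes were called between sham and naive, 3 higher and 2 lower, where 50.6% of all tested genes were called, 24.7% higher and 25.9% lower. Between SCI and naive 4 of 7 were called, 3 higher and 1 lower, against 48.5% of all, 23.9% higher and 24.6% lower. The groups did not overlap for 4 of 7 genes between sham and naive (56.7% of all tested genes), for 5 of 7 between SCI and naive (64.1%) and for 0 of 7 between SCI and sham (6.41%). These shares are near the background, so that the counts are no result about the 7 genes. Their median log2 change was 0.01 in sham and 0.04 in SCI against naive, and 0.05 for SCI against sham. Both comparisons with naive share the naive libraries.

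After each gene's group mean was removed, all 21 pairs of the 7 genes had a positive Pearson correlation of log2 CPM over the 9 libraries, from 0.12 (Fabp7 with Glul) to 0.93 (Ptgds with Glul), as a description of libraries that share their scaling. Without that step 13 pairs were positive and 8 negative, from -0.76 (Fabp7 with Sparcl1) to 0.94 (Fabp7 with Apoe). Sham 3 held the highest of the sham values for all 7 genes, and was highest for 40.0% of all tested genes. Sham 1 held the lowest for 5 of the 7, Gfap, Ptgds, Fabp7, Glul and Slc1a3, and for 37.3% of all tested genes. The SCI libraries were not ordered alike: SCI 3 was highest for Ptgds and Glul, 2 of the 7, and lowest for Gfap, Fabp7, Slc1a3 and Sparcl1, 4 of the 7.

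Ratios of counts within a library do not depend on library scaling. For each count of Gfap there were 21.6 ± 2.99 counts of Ptgds in naive, 47.4 ± 1.77 in sham and 48.6 ± 9.17 in SCI. The ratio of Ptgds to Gfap thus had similar means in sham and SCI, 45.8 to 49.3 against 41.3 to 58.9 by library. The other 5 genes were set against Gfap in the same way, so that all 6 ratios share its counts. The ratio of Fabp7 to Gfap was 0.445 ± 0.0330, 1.64 ± 0.221 and 1.28 ± 0.0925, with no overlap between any pair of groups. That of Slc1a3 to Gfap was 0.536 ± 0.0670, 0.859 ± 0.0204 and 0.681 ± 0.0413, again with no overlap. The ratio of Apoe to Gfap was 77.7 ± 4.42, 256 ± 27.2 and 190.1 ± 29.1, also with no overlap. In CPM, Fabp7, Slc1a3 and Apoe each overlapped between SCI and sham, so that their ratios also carry the difference in Gfap. How many of all tested genes have a ratio to Gfap without overlap was not computed. Glul to Gfap was 8.96 ± 0.894, 14.2 ± 2.24 and 11.3 ± 1.68, with SCI and sham overlapping. Sparcl1 to Gfap was 8.61 ± 0.328, 12.3 ± 2.09 and 8.89 ± 0.830, with SCI and naive overlapping. With 3 libraries against 3, an exact permutation test of these ratios cannot go below a p of 0.1, and none is given.

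Of 21 other satellite glia genes tested, 8 were called higher and 5 lower between sham and naive (24.7% and 25.9% of all tested genes) and likewise between SCI and naive (23.9% and 24.6%), and 0 between SCI and sham. Slc1a2, a glutamate transporter on the same list, never exceeded 6 counts in a library. Bcan, the matrix proteoglycan brevican, rose from 36.2 ± 2.66 CPM in naive to 73.8 ± 9.07 in sham and 66.7 ± 8.73 in SCI. Aldoc, the aldolase of glia, rose from 515 ± 12.9 to 742 ± 54.5 and 738 ± 32.3. Cdh19, a cadherin of the neural crest glia, fell from 218 ± 6.67 to 112 ± 11.0 and 118 ± 2.61, and Ptprz1, a receptor phosphatase, from 70.6 ± 3.09 to 44.7 ± 3.71 and 50.2 ± 3.85. Kcnj10, the potassium channel Kir4.1 of satellite glia, stood at 30.5 ± 1.32, 35.8 ± 2.48 and 38.2 ± 2.46 CPM, and Gja1, the gap junction protein connexin 43, at 33.8 ± 3.65, 36.6 ± 6.41 and 39.7 ± 0.766 (both chosen after their values were seen).

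Schwann cells, which are known to share Cdh19 and Erbb3 with satellite glia, had 8 of 11 markers called lower and 0 higher in both sham and SCI against naive. Their summed level was 31955 to 33651 CPM in naive, 19187 to 23186 in sham and 20372 to 24578 in SCI, with none at 0. Among all tested genes 25.9% were called lower in sham and 24.6% in SCI. Skeletal muscle markers were highest in sham, at 112 to 133 CPM against 49.2 to 72.6 in naive and 53.2 to 82.8 in SCI. Of 9 tested, 8 were called higher in sham than in naive (24.7% of all tested genes). Between SCI and sham 0 were called, but all 9 lay lower in SCI without overlap of the groups (6.41% of all tested genes, either direction). All 9 had an unadjusted edgeR p under 0.05 there (3.16% of all tested genes). The part of these differences in the values of the 7 genes was not tested.

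**Figure D4:**
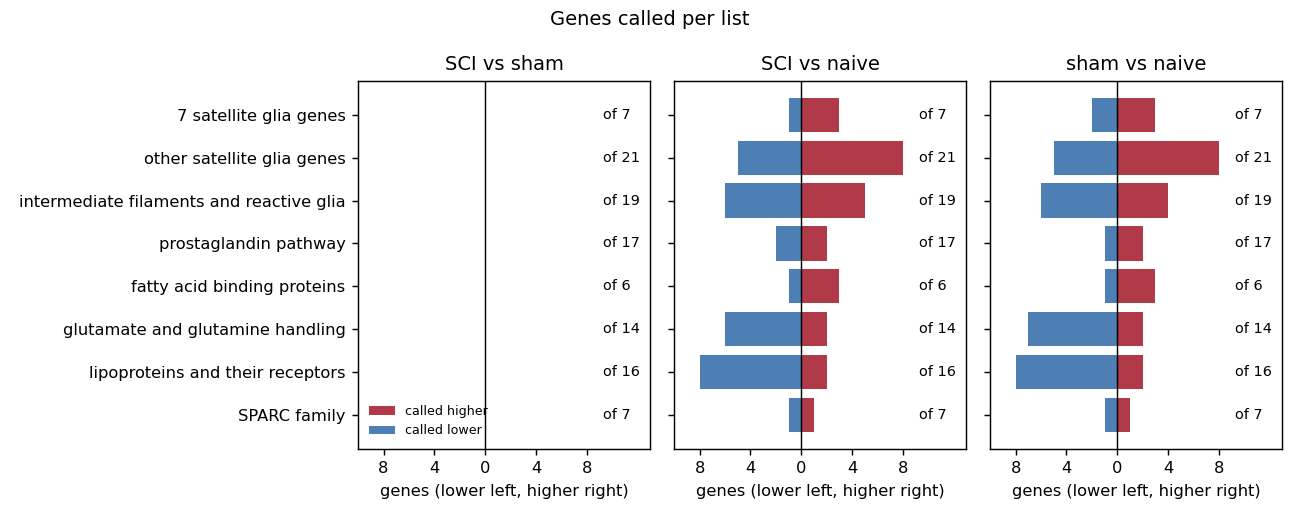
Number of genes called higher (to the right) and lower (to the left) per list in the 3 comparisons, with the number tested at the right edge of each row. No list has a called gene for SCI against sham, and in both comparisons with naive each of the 8 plotted lists (the 7 genes and their pathway lists, without the cell type markers) has genes called in each direction, such as 8 higher and 5 lower among 21 other satellite glia genes.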

How the data were processed

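Total RNA of 9 DRG samples was sequenced as paired-end TruSeq V2 libraries, per the labels' protocols; this kit does not mark strand. The deposited values are whole-number read counts per gene. FastQC, Trimmomatic, TopHat2, HTSeq and DESeq2 are named in the submitters' processing notes; their versions, the genome build and the gene models: not given in the sources used here. Groups follow the treatment labels, and all columns were used. Counts were tested with edgeR 4.0.16 (R 4.3.3): quasi-likelihood test, TMM scaling, filterByExpr, 3 groups in 1 fit (6 residual degrees of freedom), Benjamini-Hochberg adjustment over 16627 genes, calls at an adjusted p under 0.05. For log2 CPM the prior count was 2. The 7 genes and all lists were chosen with earlier results of these data known. Of 208 listed symbols 199 matched 1 identifier and 181 were tested. Named were the 7 genes, the 3 genes of smallest p per list and comparison with naive, any called between SCI and sham, and the 5 most like Gfap and Ptgds. A gene that this rule names is not reported here. Upstream sequences are RefSeq's (GRCr8). Alternatives were scaling by RLE or by upper quartile, a strict filter (1 CPM in all libraries) or none, DESeq2 1.42.0, limma-voom (limma 3.58.1), robust spread, compared groups only, replicate block, each library left out, and an adjusted p under 0.1. In simulated SCI and sham counts over 16444 genes the test found 22.4% of genes changed 1.25-fold, 76% at 1.5-fold and 88% at 2-fold, with 10 false calls. The simulation gave all groups the same spread per gene and no difference of the naive libraries. In the data the sham libraries lay further apart from each other than the SCI libraries. These shares therefore need not hold for the real comparison.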

Additional observations from a re-analysis of the deposited data

How the results depend on the processing

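Of 399 member changes recomputed under 19 alternatives, 372 kept their direction and their side of the threshold, 9 lost a call, 5 gained one and 13 turned sign. The count of called genes among the 7 was 0 under all 19 for SCI against sham, 4 or 5 for SCI against naive, and 3 to 5 with a library left out (4 or 5 otherwise) for sham against naive, the 3 being without naive 2. The changes that turned sign were those of Fabp7, Apoe, Glul and Slc1a3, all small. With a library left out, Fabp7 ran from -0.052 to 0.18, Apoe from -0.13 to 0.084 and Slc1a3 from -0.12 to 0.21 for SCI against sham. Glul ran from -0.0050 to 0.050 and Slc1a3 from -0.0069 to 0.087 for SCI against naive, and Slc1a3 from -0.16 to 0.15 for sham against naive. For sham against naive, Slc1a3 was also -0.0092 with the strict filter and -0.024 with limma-voom. Gfap and Ptgds kept a positive sign against sham under all 19 (0.23 to 0.56 and 0.22 to 0.56), with adjusted p from 0.0530 upward. Over all genes, SCI against sham gave 0 calls, but 11 without a filter, 9 with DESeq2 and 22 without sham 3. The prostaglandin list moved from 4 to between 2 and 8 calls for SCI against naive and from 3 to between 3 and 5 for sham against naive, and the SPARC list from 2 to as many as 4 and 5. The replicate number pairs nothing in the labels, and same-numbered libraries correlated in their deviations from -0.095 to 0.12. With the replicate block, the 7 genes had 0, 4 and 4 calls for SCI against sham, SCI against naive and sham against naive, against 0, 4 and 5 without it. The lowest count of a member, 389, is well above the low-count filter. The causes were not tested.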
